A study of Homo sapiens with 14 samples.

Results

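The homologous recombination and Fanconi repair genes described here were 37 genes of double-strand break repair, Fanconi anaemia, mismatch repair and DNA damage checkpoints. They were chosen by name, with earlier results of these data known. Of these, 30 had at least 1 probe named in the annotation of the array, 44 probes in all out of 47323. After a filter on dim probes, 43 of these probes remained among 22158, and 29 of the 30 genes could be tested among 11679 genes. The single probe of FANCF, an adaptor of the Fanconi core complex, was not well above background on any of the 14 arrays (lowest detection p 0.0532). ATR, RAD50, RBBP8, FANCM, FANCD2, FANCA and BRCA2 had no named probe and were not analysed here.

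The cells were Mel202, a human uveal melanoma line that carries the GNAQ mutations Q209L and R210K, is wild type for BRAF and was the only line used. They were grown in 6-well plates and given ICG-001, a small molecule that binds the coactivator CBP and blocks its contact with beta-catenin, at 3 µM for 24 h (3 replicates from 4 arrays), or its solvent DMSO for 24 h (2 replicates from 3 arrays). Other cells received ICG-001 at 3 µM for 48 h (3 replicates from 4 arrays) or DMSO for 48 h (2 replicates from 3 arrays). Biotin-labelled RNA was hybridised to Illumina bead arrays, so each value is the signal of a probe on a log2 scale, and the number of arrays limits its precision. Nothing in the labels gives the replicates as separate cultures. The p-values therefore weigh differences against the spread of these samples alone, and that spread may be technical.

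Homologous recombination mends a broken chromosome by copying the sister chromatid, and is therefore used mainly in S and G2 phase. Sensor kinases mark the break, nucleases trim its ends to single strands, and the BRCA1 and PALB2 proteins together with paralogs of the recombinase help to load that recombinase for strand invasion. At crosslinks between DNA strands, the Fanconi core complex and its E2 enzyme attach ubiquitin to the FANCI-containing ID complex, which brings in nucleases and the same recombination factors. Mismatch repair corrects replication errors. Many of these genes are transcribed in a cell-cycle-dependent manner.

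Median probe signals of the 14 arrays lay between 113.1 and 139.1, and 17619 to 20124 probes per array had a detection p below 0.05. Of 8 melanocyte markers 6 were past the filter, and all 6 (PMEL, TYRP1, SOX10, TYR, MLANA and MITF) were above background on all 14 arrays. Among markers of other cell types, 2 of 5 for fibroblasts, 1 of 5 for endothelium, 3 of 6 for immune cells, 1 of 5 for epithelium and 4 of 5 for retinal pigment epithelium were past the filter, whereas PTPRC, PECAM1, EPCAM and RPE65 had no named probe past it. The same held for the melanocyte markers DCT and S100B. LUM, EMCN, CD68, CDH1, BEST1 and SERPINF1 were also above background on all 14 arrays. Of all these markers, SOX10, LUM, CD68 and CDH1 were called lower with ICG-001 at both times and BEST1, TTR and SERPINF1 higher. The log2 changes furthest from 0 were -1.83 and -2.22 for LUM, and the part of these markers in the repair gene values was not tested.

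After 24 h of ICG-001 the repair genes split in direction. They form 6 groups by role, and genes that were higher and genes that were lower than in DMSO occurred side by side in 2 of them, strand invasion and the Fanconi core with its E2 enzyme. Past an adjusted p of 0.05 in limma, 6 of the 29 tested genes were higher (MRE11, PALB2, FANCC, FANCG, FANCI and MSH6) and 4 were lower (H2AX, CHEK2, RAD51C and UBE2T). RAD51C, the lower gene of strand invasion, is given by its brightest probe. Its other probes changed by 0.07 and -0.19 at 24 h and were not called. The share called was 34.5% of the repair genes, where 24.3% of all genes tested were called (13.7% higher and 10.5% lower). The median log2 change of the repair genes was -0.029, that of all genes 0.02.

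After 48 h, 6 repair genes were higher (BRCA1, PALB2, FANCC, FANCG, FANCI and MSH6) and 2 were lower (H2AX and RAD51C). That is 27.6% of the repair genes, close to the 25.8% called among all genes (14% higher and 11.7% lower). Their median log2 change was -0.013, against 0.015 for all genes. The 5 genes PALB2, FANCC, FANCG, FANCI and MSH6 were called higher at both times, and the 2 genes H2AX and RAD51C lower at both. The share of all genes called at both times was not counted, so nothing particular to the repair genes is read from this. No repair gene was called in opposite directions at the 2 times by its brightest probe. For RAD51C another probe was called higher at 48 h (0.67, adjusted p = 0.0187 over all probes). In the mean of both effects 8 repair genes were higher and 4 lower, 41.4% of them, against 41.8% of all genes (22.6% higher and 19.2% lower), and BRIP1 was called there alone. BRIP1 was dim and passed the filter through its ICG-001 arrays, so its place among the 8 is not read as a change. The mean effects of MRE11 (0.29, adjusted p = 0.036) and BRCA1 (0.41, adjusted p = 0.0135) were called as well. MRE11 lost that call when any of 6 replicates was left out (adjusted p up to 0.136), and BRCA1 without the unaveraged DMSO array at 48 h (0.34, adjusted p = 0.0617). The 24 h and 48 h comparisons use separate DMSO samples.

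**Figure D1:**
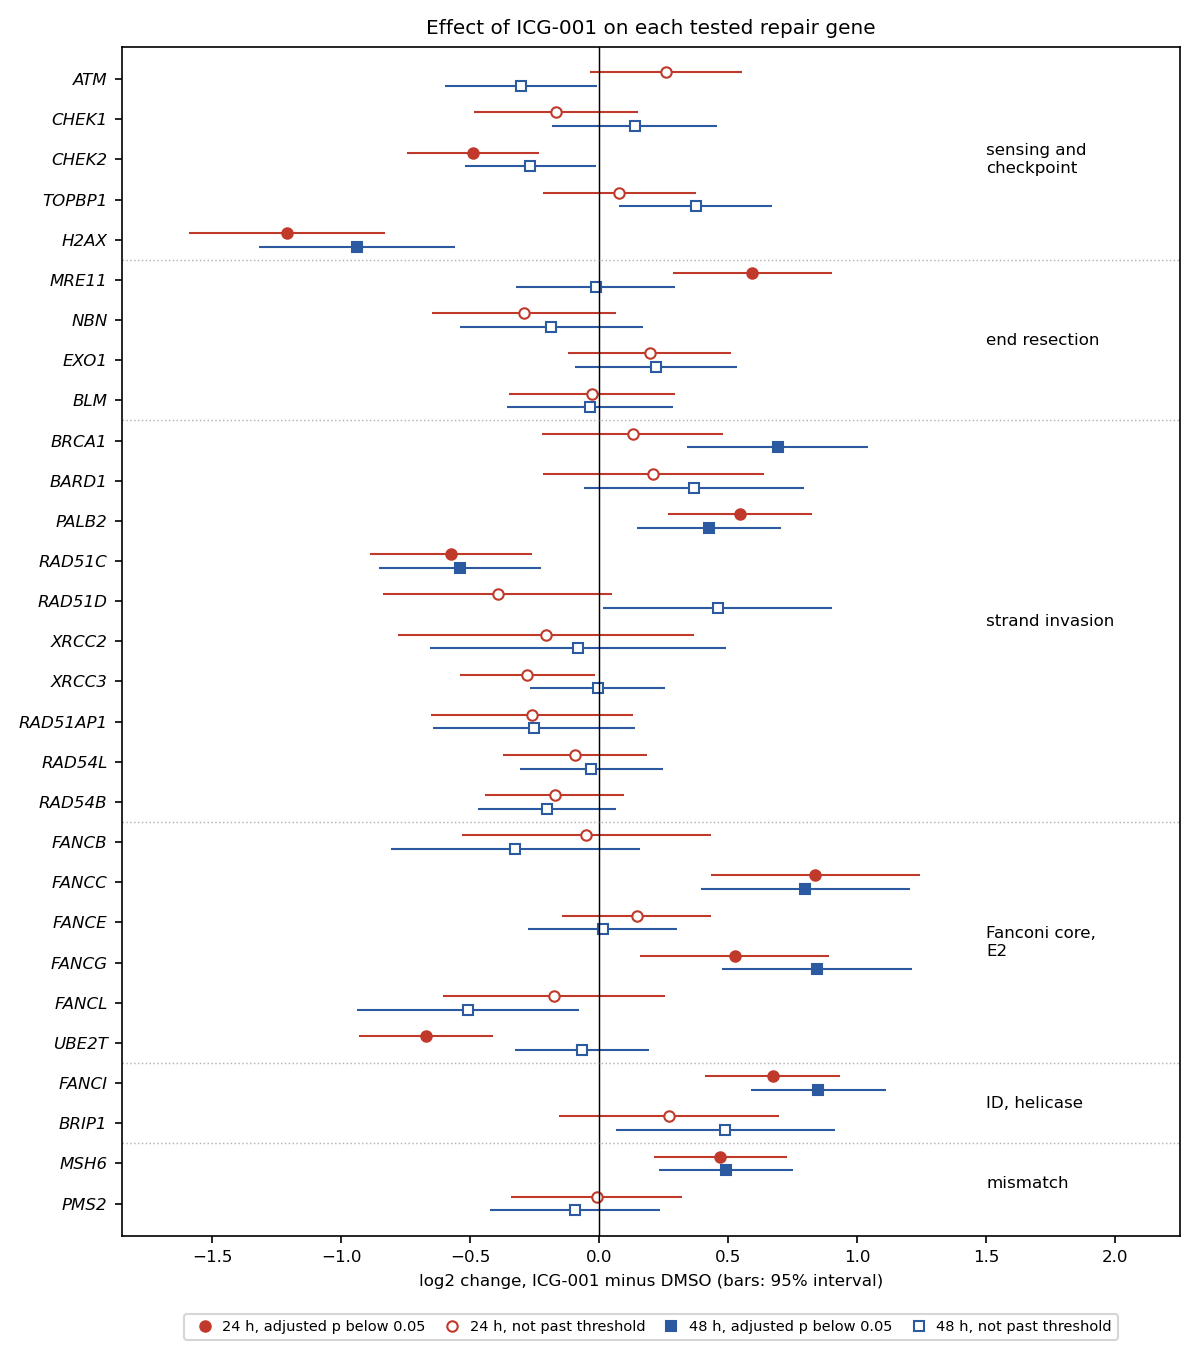
Log2 change (ICG-001 minus DMSO, with its 95% interval) of each of the 29 tested repair genes, ordered by role, at 24 h (red circles) and 48 h (blue squares); filled symbols passed an adjusted p of 0.05. H2AX lies farthest to the left at both times, at -1.21 and -0.94, and FANCC, FANCG and FANCI reach 0.80 to 0.85 at 48 h.

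The counts depended on single DMSO samples and on the scale. Without the averaged pair of DMSO arrays at 24 h, 1 repair gene was called higher at 24 h in place of 6. Without the averaged DMSO pair at 48 h, 3 were called higher and 1 lower at 48 h. Centring every replicate on the median of 31 S phase genes, a scaling chosen after seeing the data, moved the median of all genes by -0.058 at 24 h and -0.191 at 48 h, and gave 4 higher and 4 lower repair genes at 24 h and 3 higher and 5 lower at 48 h. It ended the calls of FANCG (0.47, adjusted p = 0.08) and MSH6 (0.41, adjusted p = 0.0783) at 24 h, and of MSH6 (0.30, adjusted p = 0.162), PALB2 (0.24, adjusted p = 0.293) and BRCA1 (0.50, adjusted p = 0.0719) at 48 h. On the same scale CHEK2 (-0.46, adjusted p = 0.0331), ATM (-0.49, adjusted p = 0.0196) and FANCL (-0.70, adjusted p = 0.0145) were called lower at 48 h.

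Replicates of ICG-001 and DMSO did not overlap for 13 of the 29 repair genes at 24 h, with ICG-001 above in 7 and below in 6, where 51% of all genes did not overlap (27.4% above and 23.5% below). At 48 h this held for 16 repair genes, 9 above and 7 below, where 54.4% of all genes did not overlap (28.1% above and 26.3% below).

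Promoter sequences of the genes called lower, and of 2 core complex genes that were higher at both times, are printed here so that known elements of cell-cycle regulators and of CREB can be read beside the changes. Each run is the 250 bases before the annotated gene start in RefSeq (GRCh38.p14), 5′ to 3′ on the gene's strand. Capitals mark the CCAAT box (CCAAT), the cell cycle homology region or CHR (TTTGAA), the cyclic AMP response element or CRE (TGACGTCA), and E2F sites (TTTCCCGC, TTTCGCGC, TTTGCCGC or TTTGGCGC), searched on both strands, so that ATTGG and TTCAAA are the CCAAT box and the CHR read from the other strand. No match overlapped another. The windows are chr11:119095466-119095715 for H2AX, chr22:28741821-28742070 for CHEK2, chr1:202341937-202342186 for UBE2T, chr9:95317710-95317959 for FANCC and chr9:35079943-35080192 for FANCG, all on the minus strand, and chr17:58692352-58692601 on the plus strand for RAD51C. RAD51C and FANCC have 2 windows each, and the one with more matches is shown.
H2AX: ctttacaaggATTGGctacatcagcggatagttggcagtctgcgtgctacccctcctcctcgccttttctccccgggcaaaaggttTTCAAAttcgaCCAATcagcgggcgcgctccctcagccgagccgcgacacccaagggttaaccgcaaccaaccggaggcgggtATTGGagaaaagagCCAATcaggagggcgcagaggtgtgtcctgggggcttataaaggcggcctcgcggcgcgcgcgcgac
CHEK2: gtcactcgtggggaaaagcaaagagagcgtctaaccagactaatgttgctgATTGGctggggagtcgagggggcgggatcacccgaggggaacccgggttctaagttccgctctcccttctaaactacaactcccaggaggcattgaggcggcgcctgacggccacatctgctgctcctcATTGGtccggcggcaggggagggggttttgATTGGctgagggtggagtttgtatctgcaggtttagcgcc
UBE2T: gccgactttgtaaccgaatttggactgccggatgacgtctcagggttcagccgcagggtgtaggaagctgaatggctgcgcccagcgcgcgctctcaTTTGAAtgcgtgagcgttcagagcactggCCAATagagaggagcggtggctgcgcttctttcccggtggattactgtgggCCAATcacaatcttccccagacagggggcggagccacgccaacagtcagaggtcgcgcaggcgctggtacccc
RAD51C: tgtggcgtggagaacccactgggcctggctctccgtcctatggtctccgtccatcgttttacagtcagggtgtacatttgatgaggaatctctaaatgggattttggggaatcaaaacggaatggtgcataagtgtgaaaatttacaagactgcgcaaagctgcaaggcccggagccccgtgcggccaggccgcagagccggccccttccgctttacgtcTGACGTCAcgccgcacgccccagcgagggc
FANCC: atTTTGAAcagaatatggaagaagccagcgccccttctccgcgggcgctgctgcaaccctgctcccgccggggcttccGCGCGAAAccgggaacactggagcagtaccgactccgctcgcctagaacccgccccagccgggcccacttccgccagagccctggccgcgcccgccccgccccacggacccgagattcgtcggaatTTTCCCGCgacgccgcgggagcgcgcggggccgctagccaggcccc
FANCG: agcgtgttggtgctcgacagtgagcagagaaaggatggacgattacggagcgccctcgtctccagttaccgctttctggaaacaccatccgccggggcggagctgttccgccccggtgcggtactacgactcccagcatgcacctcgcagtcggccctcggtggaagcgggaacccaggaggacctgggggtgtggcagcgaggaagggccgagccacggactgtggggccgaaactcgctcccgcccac

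H2AX held 4 CCAAT boxes and 1 CHR, UBE2T 2 CCAAT boxes and 1 CHR, and CHEK2 3 CCAAT boxes. RAD51C held 1 CRE, FANCC 1 CHR and 2 E2F sites, and FANCG none of these letters. FANCI, RAD54B and NBN had no entry in the promoter table, which left 26 of the 29 tested genes. A gene counted as holding an element if any of its windows did. CCAAT was found in 15 of the 26 (57.7%), against 42.3% of 9371 tested genes and 32.0% of 35116 windows. The CHR was found in 5 (19.2%; ATM, H2AX, FANCC, UBE2T and BRIP1), against 12.4% of tested genes and 13.3% of windows. The CRE was found in 4 (15.4%; EXO1, RAD51C, XRCC2 and PMS2), against 3.63% of tested genes and 1.65% of windows, and E2F sites in 2 (7.69%; FANCC and PMS2), against 5.78% of tested genes and 2.79% of windows. CCAAT stood before 3 of the 4 genes called lower and 5 of the 7 called higher that had an entry, and the CHR before 2 of 4 and 2 of 7. The CRE stood before 1 of 4 and 0 of 7, and E2F sites before 0 of 4 and 1 of 7. The 7 include BRIP1, which held both CCAAT and the CHR and from which no change is read. The 4 include RAD51C, whose probes disagreed in direction at 48 h. These matches describe the letters of the windows and not binding.

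**Figure D2:**
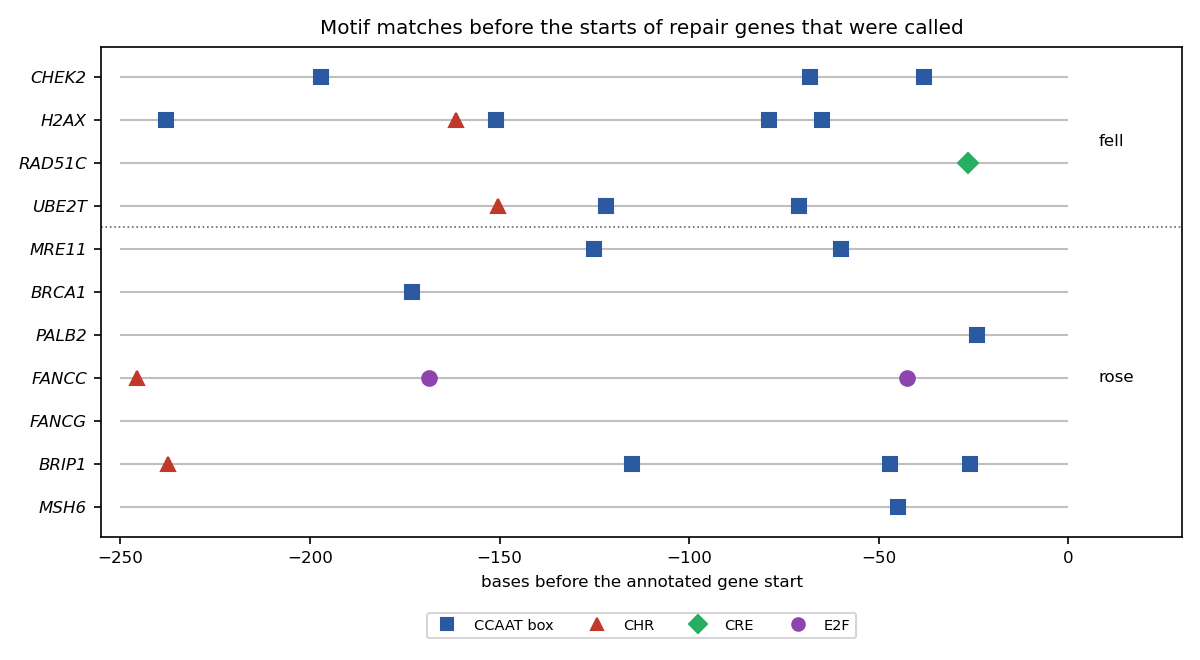
Positions of matches to 4 promoter elements (symbols) in the 250 bases before the annotated start of the 11 called repair genes with a promoter entry; the x axis gives bases before the start, and the genes called lower stand above the dotted line, those called higher below it. CCAAT boxes (blue squares) occur on both sides of the line, and FANCG holds no match. BRIP1 stands below the line, although no change is read from it.

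Among the 5 tested genes of damage sensing and checkpoint signalling, none was called higher, 2 were called lower at 24 h (H2AX and CHEK2) and 1 at 48 h (H2AX). H2AX encodes the histone variant that is phosphorylated around a break and serves there as a platform for repair proteins. Its log2 signal was 7.06, 7.30 and 7.17 in ICG-001 cells at 24 h, against 8.63 and 8.15 in DMSO cells. After 48 h the values were 7.46, 7.88 and 7.50 in ICG-001 cells, against 8.57 and 8.54 in DMSO cells. Every ICG-001 replicate lay below every DMSO replicate of its time. H2AX fell by 1.21 ± 0.17 (SE) on the log2 scale at 24 h, 2.31-fold lower (adjusted p = 0.000971), and by 0.94 ± 0.17 at 48 h, 1.92-fold lower (adjusted p = 0.00308). Among the 29 repair genes it was the only one called past 2-fold at 24 h, where 275 of all 11679 genes were. Both H2AX calls held under each of the alternatives run. In the authors' deposited table the changes fitted in the same way were smaller, -0.68 and -0.57. In RNA from a whole culture, fewer cells that express a gene and less RNA per cell cannot be told apart.

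CHEK2, the effector kinase that ATM activates, was measured by 2 probes. The brighter probe had log2 signals of 7.58, 7.55 and 7.62 in ICG-001 cells at 24 h, against 8.18 and 7.96 in DMSO cells. At 48 h its signals were 7.90, 7.91 and 7.93 in ICG-001 cells, against 8.23 and 8.13 in DMSO cells. The groups were apart at both times, and the gap was narrower at 48 h. CHEK2 fell by 0.49 ± 0.12 at 24 h (1.40-fold, adjusted p = 0.0121), and the change at 48 h was -0.27 ± 0.12 (adjusted p = 0.113). Without the unaveraged DMSO array at 24 h the change was -0.38 and no longer called (adjusted p = 0.0709), and the authors' table gave -0.28. The other probe had 6.77, 7.40 and 7.09 in ICG-001 cells at 24 h, against 8.12 and 8.05 in DMSO cells. The 48 h signals were 7.21, 7.24 and 7.56 in ICG-001 cells, against 8.36 and 8.30 in DMSO cells. In a fit over all 22158 probes, in which 17.1% of probes were called at 24 h and 18.7% at 48 h, this probe fell by 1.00 ± 0.18 at 24 h (adjusted p = 0.00526) and by 1.00 ± 0.18 at 48 h (adjusted p = 0.00463). Partial copies of CHEK2 lie elsewhere in the genome, and whether either probe also binds their transcripts was not tested.

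ATM, the kinase that responds to double-strand breaks, was measured by 2 probes. The brighter one had log2 signals of 7.52, 7.80 and 7.77 in ICG-001 cells at 24 h, against 7.48 and 7.40 in DMSO cells, and at 48 h 7.59, 7.74 and 7.56 in ICG-001 cells, against 7.81 and 8.05 in DMSO cells. By this probe the groups did not overlap at either time, and they stood in opposite order at 24 h and 48 h. The other probe had 7.63, 7.67 and 7.42 in ICG-001 cells at 24 h, against 7.36 and 7.50 in DMSO cells, which overlap. It changed by 0.14 at 24 h and by -0.32 at 48 h, and was not called. For the brighter probe neither change passed the test (0.26, adjusted p = 0.185, and -0.30, adjusted p = 0.121), nor did their difference (-0.56, adjusted p = 0.874). CHEK1, the checkpoint kinase of stalled forks, changed by -0.17 and 0.14, and TOPBP1, which activates the kinase upstream of it, by 0.08 and 0.37 (adjusted p = 0.0623 at 48 h). None of these values passed the test, although TOPBP1 at 48 h was called under 3 alternatives (adjusted p 0.0249 to 0.044).

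**Figure D3:**
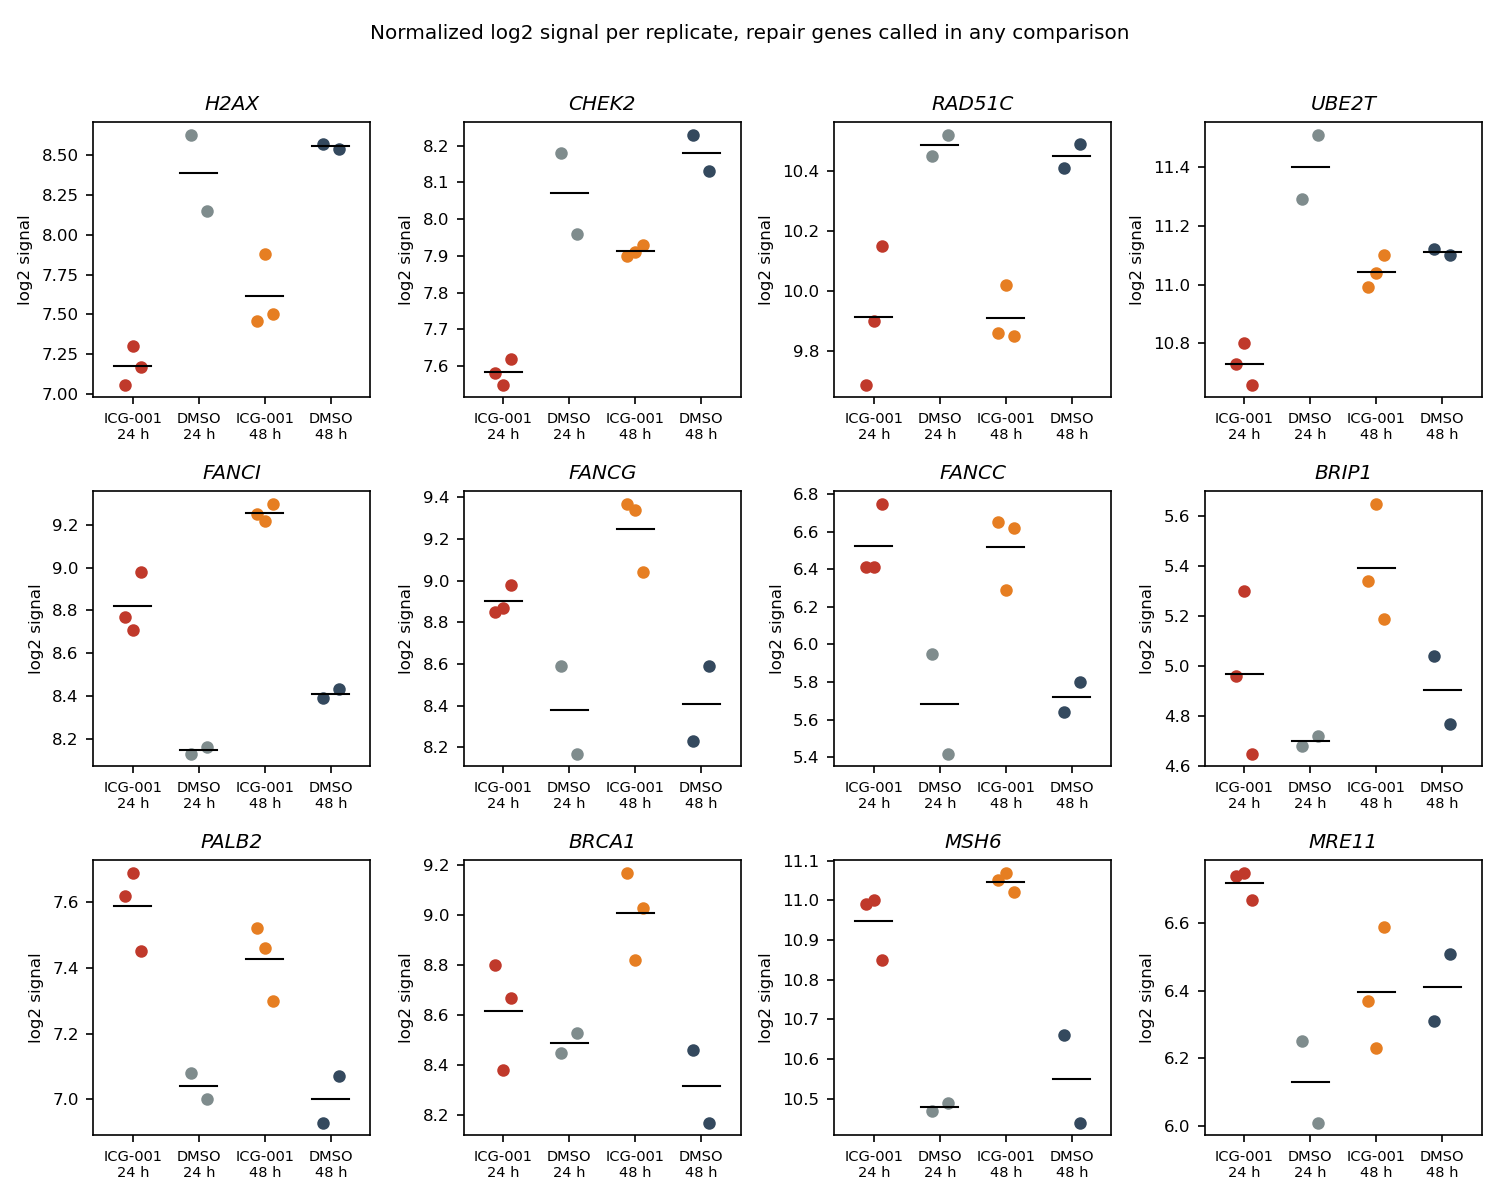
Normalized log2 signal of each replicate (points) and the mean of each group (bars) for the 12 repair genes called at 24 h, at 48 h or in the mean effect; each panel has its own y axis. In the H2AX, CHEK2 and RAD51C panels all ICG-001 points lie below the DMSO points of the same time, and in the FANCI, FANCG, FANCC, PALB2 and MSH6 panels all lie above them.

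Of the 4 tested genes of end resection and unwinding, MRE11 was called higher at 24 h and none was called at 48 h. MRE11 is the nuclease that starts the trimming of broken ends. Its brightest probe had log2 signals of 6.74, 6.75 and 6.67 in ICG-001 cells at 24 h, against 6.25 and 6.01 in DMSO cells. At 48 h the replicates gave 6.37, 6.23 and 6.59 in ICG-001 cells, against 6.31 and 6.51 in DMSO cells. The groups were apart at 24 h and overlapped at 48 h. MRE11 rose by 0.59 ± 0.14 at 24 h (1.51-fold, adjusted p = 0.0121), and the change at 48 h was -0.01 ± 0.14 (adjusted p = 0.952). Without the averaged DMSO pair at 24 h the change was 0.47 and not called (adjusted p = 0.0956), and the authors' table gave 0.19 with the call kept. The difference between the 2 times was -0.61 (unadjusted p = 0.0108, adjusted p = 0.872). Its other 2 probes, both dimmer, changed by 0.20 and -0.16 at 24 h and by 0.37 and -0.49 at 48 h, and neither was called. The probe with the change of 0.37 was above background on 2 ICG-001 arrays and 0 DMSO arrays at each time and passed the filter through them, so no fold is read from it.

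NBN, the partner of MRE11, changed by -0.29 and -0.19, EXO1, the long-range exonuclease, by 0.19 and 0.22, and BLM, the helicase lost in Bloom syndrome, by -0.03 and -0.04. None passed the test at either time. A dimmer NBN probe changed the other way, by 0.17 and 0.23, and a second EXO1 probe by -0.17 and -0.08. Neither was called. A dim probe of EXO1 had values of 4.99, 5.44 and 4.78 in ICG-001 cells at 48 h, against 5.67 and 5.83 in DMSO cells. It was above background on 1 of 4 ICG-001 arrays and 3 of 3 DMSO arrays there, and on 1 of 4 and 0 of 3 at 24 h. It passed the filter mainly through the DMSO arrays at 48 h, so no change is read from it.

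In the group of strand invasion and its mediators 10 genes were tested. At 24 h PALB2 was higher and RAD51C lower, and at 48 h BRCA1 and PALB2 were higher and RAD51C lower. PALB2 joins BRCA1 to the loader of the recombinase. Its log2 signal was 7.62, 7.69 and 7.45 in ICG-001 cells at 24 h, against 7.08 and 7.00 in DMSO cells. At 48 h it had 7.52, 7.46 and 7.30 in ICG-001 cells, against 6.93 and 7.07 in DMSO cells. The groups did not overlap. PALB2 rose by 0.55 ± 0.13 at 24 h (1.46-fold, adjusted p = 0.0112) and by 0.43 ± 0.13 at 48 h (1.34-fold, adjusted p = 0.0306). The 24 h call ended without the averaged DMSO pair (0.51, adjusted p = 0.0664). The 48 h call ended under 8 of the alternatives, among them leaving out the averaged DMSO pair (0.35, adjusted p = 0.188), the other DMSO array (0.50, adjusted p = 0.07) or the ICG-001 replicate 1 (0.38, adjusted p = 0.0946) or 2 (0.41, adjusted p = 0.0747). The authors' table gave smaller changes, 0.26 and 0.20.

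BRCA1, a ubiquitin ligase that promotes resection and recombination, was measured by 2 probes that moved alike. The brighter probe had log2 signals of 8.80, 8.38 and 8.67 in ICG-001 cells at 24 h, against 8.45 and 8.53 in DMSO cells, and the groups overlapped. After 48 h the values were 9.17, 8.82 and 9.03 in ICG-001 cells, against 8.46 and 8.17 in DMSO cells. Here every ICG-001 replicate was higher. BRCA1 rose by 0.69 ± 0.16 at 48 h (1.61-fold, adjusted p = 0.00985), whereas the change at 24 h was 0.13 ± 0.16 (adjusted p = 0.599). Without the unaveraged DMSO array at 48 h the change was 0.55 and not called (adjusted p = 0.0935). The difference of the 2 effects was 0.56 (unadjusted p = 0.0302, adjusted p = 0.874). The other probe had 8.91, 8.88 and 8.81 in ICG-001 cells at 48 h, against 8.08 and 8.18 in DMSO cells, and rose by 0.74 ± 0.13 (1.67-fold, adjusted p = 0.00438 over all probes). BARD1, the partner of BRCA1, changed by 0.21 and 0.37 and was not called. Without the unaveraged DMSO array at 48 h BARD1 changed by 0.68 there and was called (adjusted p = 0.0464).

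RAD51C, a paralog of the recombinase that stabilises its filament, had 3 probes that disagreed. The brightest probe, annotated to one transcript record, had log2 signals of 9.69, 9.90 and 10.15 in ICG-001 cells at 24 h, against 10.45 and 10.52 in DMSO cells. The 48 h signals were 9.86, 10.02 and 9.85 in ICG-001 cells, against 10.41 and 10.49 in DMSO cells. All ICG-001 replicates were lower. By this probe RAD51C fell by 0.57 ± 0.14 at 24 h (1.49-fold, adjusted p = 0.0149) and by 0.54 ± 0.14 at 48 h (1.45-fold, adjusted p = 0.0185). The 24 h call ended without the averaged DMSO pair (-0.54, adjusted p = 0.0804). The 48 h call ended without the averaged DMSO pair (-0.58, adjusted p = 0.0713), without the other DMSO array (-0.50, adjusted p = 0.105) and without ICG-001 replicate 1 (-0.52, adjusted p = 0.0553).

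A second RAD51C probe (ILMN_2238928), annotated to another transcript record of the gene, had 9.34, 9.38 and 9.08 in ICG-001 cells at 24 h, against 9.00 and 9.40 in DMSO cells. At 48 h the replicates gave 9.54, 9.66 and 9.88 in ICG-001 cells, against 9.08 and 8.97 in DMSO cells. It was therefore higher in every ICG-001 replicate at 48 h, where the brightest probe was lower in every one. In the fit over all probes it rose by 0.67 ± 0.17 at 48 h (1.59-fold, adjusted p = 0.0187), and the brightest probe fell there with an adjusted p of 0.0296. The third probe shares the second probe's record and changed by -0.19 and 0.22, neither called. RAD51C was the only 1 of the 11 repair genes with several probes to have probes called in both directions. The cause of this disagreement was not tested.

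**Figure D4:**
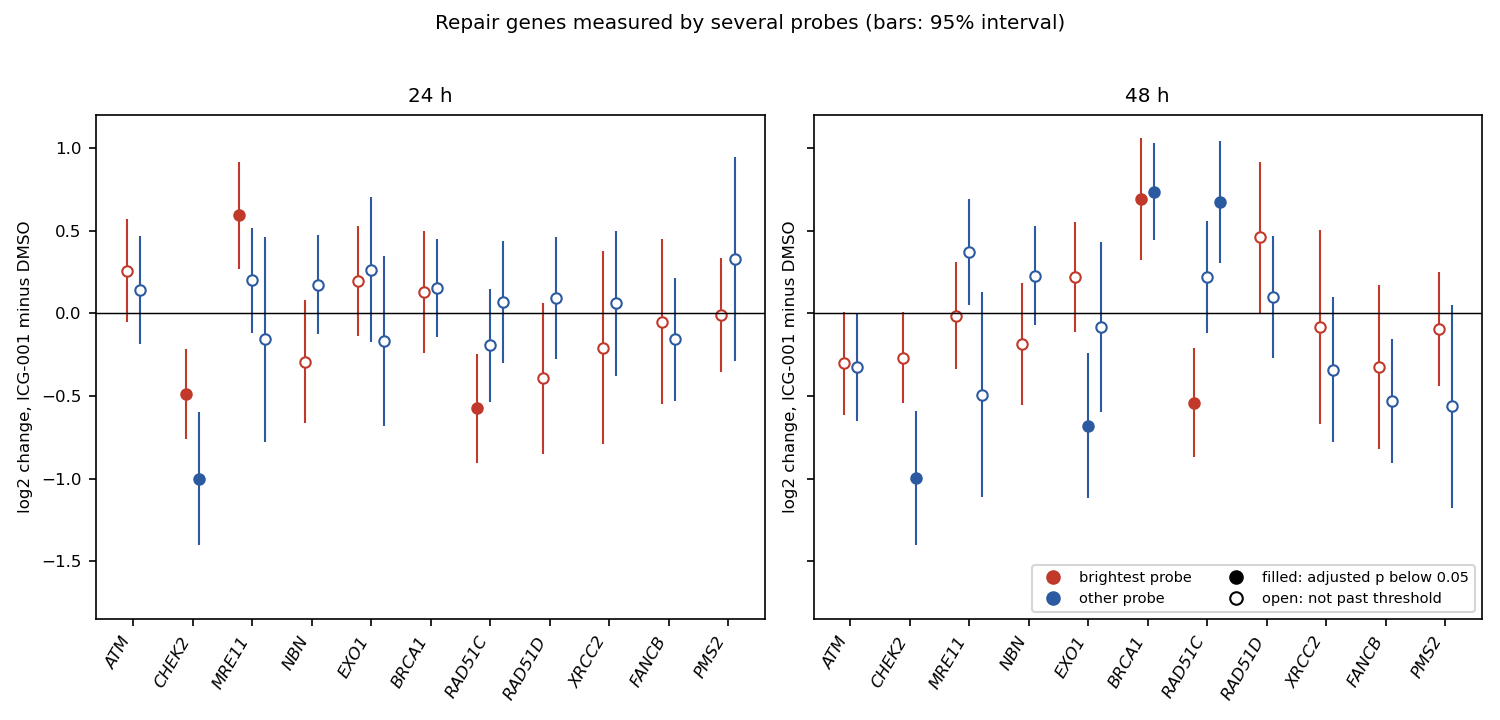
Log2 change (ICG-001 minus DMSO, with its 95% interval) of each probe of the 11 repair genes measured by several probes, at 24 h and 48 h, in the fit over all probes; red is the brightest probe, blue the others, and filled symbols passed an adjusted p of 0.05. At 48 h the RAD51C probes stand at -0.54, 0.22 and 0.67, while the BRCA1 probes lie at 0.69 and 0.74. The filled EXO1 symbol is a dim probe that passed the filter mainly through DMSO arrays.

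RAD51D, another paralog, was on opposite sides of DMSO at the 2 times. It had 6.24, 6.32 and 5.69 in ICG-001 cells at 24 h, against 6.46 and 6.50 in DMSO cells, and 6.01, 6.57 and 6.25 in ICG-001 cells at 48 h, against 5.86 and 5.78 in DMSO cells. The groups did not overlap at either time, yet neither change passed the test (-0.39, adjusted p = 0.180, and 0.46, adjusted p = 0.117). Its other probe changed by 0.09 and 0.10. The remaining paralogs and helpers were XRCC2, XRCC3, RAD51AP1, RAD54L and RAD54B, the last 2 being motor proteins that act on the filament. By their brightest probes these had changes between -0.28 and -0.01 (a dimmer XRCC2 probe 0.06 and -0.34), and none was called. The DMSO replicates of XRCC2 at 24 h were far apart (8.09 and 9.11), and without the unaveraged one of these its change at 24 h was -0.72 and called (adjusted p = 0.0476).

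Of the 6 tested genes of the Fanconi core complex and its E2 enzyme, FANCC and FANCG were higher at both times and UBE2T was lower at 24 h. FANCC, which bridges other subunits of the core complex, had log2 signals of 6.41, 6.41 and 6.75 in ICG-001 cells at 24 h, against 5.95 and 5.42 in DMSO cells. At 48 h it had 6.65, 6.29 and 6.62 in ICG-001 cells, against 5.64 and 5.80 in DMSO cells. No replicate overlapped. FANCC rose by 0.84 ± 0.18 at 24 h (1.79-fold, adjusted p = 0.00853) and by 0.80 ± 0.18 at 48 h (1.74-fold, adjusted p = 0.00968). Each call ended without the averaged DMSO pair of its time (0.57, adjusted p = 0.0866, and 0.72, adjusted p = 0.0775). On the scale of the authors' table its changes were 0.24 and 0.23, both called.

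FANCG, a scaffold subunit of the core complex, had 8.85, 8.87 and 8.98 in ICG-001 cells at 24 h, against 8.59 and 8.17 in DMSO cells. After 48 h the values were 9.37, 9.34 and 9.04 in ICG-001 cells, against 8.23 and 8.59 in DMSO cells. All ICG-001 replicates were higher. FANCG rose by 0.52 ± 0.17 at 24 h (1.44-fold, adjusted p = 0.0421) and by 0.84 ± 0.17 at 48 h (1.80-fold, adjusted p = 0.00452). The 24 h call ended under 11 alternatives, and without the averaged DMSO pair the change was 0.31 (adjusted p = 0.299). Leaving out ICG-001 replicates at 24 h also ended it (0.48 to 0.55, adjusted p up to 0.103). The 48 h call ended without the averaged DMSO pair (0.66, adjusted p = 0.0588).

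UBE2T, the E2 enzyme that gives ubiquitin to the ID complex, had log2 signals of 10.73, 10.80 and 10.66 in ICG-001 cells at 24 h, against 11.29 and 11.51 in DMSO cells. The 48 h signals were 10.99, 11.04 and 11.10 in ICG-001 cells, against 11.12 and 11.10 in DMSO cells. The groups were apart at 24 h and met at 48 h. UBE2T fell by 0.67 ± 0.12 at 24 h (1.59-fold, adjusted p = 0.00283), a call that held under each alternative run, and its change at 48 h was -0.07 ± 0.12 (adjusted p = 0.711). The difference of the effects, 0.61 with a 95% interval of 0.24 to 0.97, had an unadjusted p of 0.00385 and an adjusted p of 0.869. FANCB, FANCE and FANCL, the last the ubiquitin ligase of the complex, were not called by their brightest probes. Their changes were -0.05, 0.14 and -0.18 at 24 h and -0.33, 0.01 and -0.51 at 48 h (FANCL adjusted p = 0.0779 at 48 h). A second FANCB probe, above background on all 14 arrays, changed by -0.16 at 24 h and by -0.53 at 48 h (adjusted p = 0.0507 over all probes). The mean effect of that probe, -0.34, was called (adjusted p = 0.0465 over all probes). FANCL at 48 h was called under 7 alternatives, among them the title number as a random block (-0.52, adjusted p = 0.0391) and leaving out either DMSO replicate of 24 h (-0.51, adjusted p = 0.0268). Its mean effect (-0.34, adjusted p = 0.0678) was called under 8, among them both fits with that block (-0.40, adjusted p = 0.0173, and -0.38, adjusted p = 0.0322).

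FANCI, the partner of FANCD2 in the ID complex, had log2 signals of 8.77, 8.71 and 8.98 in ICG-001 cells at 24 h, against 8.13 and 8.16 in DMSO cells. At 48 h the replicates gave 9.25, 9.22 and 9.30 in ICG-001 cells, against 8.39 and 8.43 in DMSO cells. The gap between the groups was wider than the spread within either. FANCI rose by 0.67 ± 0.12 at 24 h (1.59-fold, adjusted p = 0.00303) and by 0.85 ± 0.12 at 48 h (1.80-fold, adjusted p = 0.000785), and both calls held under each alternative run. BRIP1, the helicase that binds BRCA1, had 4.96, 5.30 and 4.65 in ICG-001 cells at 24 h, against 4.68 and 4.72 in DMSO cells. At 48 h it had 5.34, 5.65 and 5.19 in ICG-001 cells, against 5.04 and 4.77 in DMSO cells. BRIP1 was dim, above background on 1 of 4 ICG-001 and 0 of 3 DMSO arrays at 24 h and on 3 of 4 ICG-001 and 1 of 3 DMSO arrays at 48 h. It passed the filter through the ICG-001 arrays, so no fold is read from it, and the call of its mean effect (adjusted p = 0.0445) was lost under 14 alternatives, with adjusted p up to 0.18.

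Both mismatch repair genes were tested. MSH6, which with its partner recognises mismatched bases, had 10.99, 11.00 and 10.85 in ICG-001 cells at 24 h, against 10.47 and 10.49 in DMSO cells. After 48 h the values were 11.05, 11.07 and 11.02 in ICG-001 cells, against 10.66 and 10.44 in DMSO cells. The groups were apart at both times. MSH6 rose by 0.47 ± 0.12 at 24 h (1.38-fold, adjusted p = 0.0156) and by 0.49 ± 0.12 at 48 h (1.41-fold, adjusted p = 0.0116). The 24 h call ended without either DMSO replicate (0.46, adjusted p = 0.0514, and 0.48, adjusted p = 0.062), and the 48 h call without the unaveraged DMSO array (0.38, adjusted p = 0.111). PMS2, the nuclease subunit that nicks the strand to be corrected, changed by -0.01 and -0.10 and was not called. A dimmer probe of it changed by 0.33 and -0.56 and was not called either. PMS2 has near-identical copies in the genome, so its value is uncertain.

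The 17 repair genes that their brightest probes called in none of these comparisons had changes between -0.39 and 0.26 at 24 h. At 48 h their changes lay between -0.51 and 0.46. The 95% intervals of these 17 genes, which are not adjusted for the number of genes, reached between 0.26 and 0.57 to either side at 24 h. Smaller changes could not be resolved with these arrays, and a somewhat larger one could also stay uncalled. XRCC3 at 24 h had an interval of -0.54 to -0.02 and was not called (adjusted p = 0.113 in limma). The effects of ICG-001 at 48 h and 24 h differed for none of the 29 genes in limma's test, as for 0% of all genes. Without adjustment 5 of the 29 repair genes had a p below 0.05 for this difference (ATM, MRE11, BRCA1, RAD51D and UBE2T), against 660 of the 11679 genes. DMSO cells at 48 h did not differ from DMSO cells at 24 h by the adjusted test in any of the 29 genes (0.0342% of all genes were called). There 4 of the 29, ATM, RAD51D, RAD54B and UBE2T, had an unadjusted p below 0.05, against 961 of the 11679 genes.

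The other repair genes, a list of 65 of which 59 were tested, also moved in both directions. At 24 h 5 were higher and 3 lower, with a median log2 change of -0.007, and at 48 h 8 were higher and 3 lower, with a median of 0.153. That is 13.6% called at 24 h and 18.6% at 48 h, lower shares than the 24.3% and 25.8% of all genes. RNF8, a ubiquitin ligase that acts at H2AX-marked breaks, fell by 0.83 ± 0.12 at 24 h (adjusted p = 0.00101) and by 0.66 ± 0.12 at 48 h (adjusted p = 0.00295). ZSWIM7, a subunit of a complex that aids the recombinase, rose by 0.56 ± 0.11 at 24 h (adjusted p = 0.00549) and by 0.73 ± 0.11 at 48 h (adjusted p = 0.00117). RPA3, a subunit of the protein that coats single strands, fell by 0.50 ± 0.12 at 24 h (adjusted p = 0.0139). FAAP100, a partner of the core complex, rose by 0.60 ± 0.15 (adjusted p = 0.0154) and PMS1, a mismatch repair homologue, by 0.68 ± 0.19 (adjusted p = 0.0238) at 24 h. At 48 h CENPS, which binds DNA with FANCM, rose by 0.98 ± 0.21 (adjusted p = 0.00597) and SLX4, the nuclease scaffold, by 0.58 ± 0.15 (adjusted p = 0.0139), while REV3L, the catalytic subunit of a translesion polymerase, fell by 0.71 ± 0.18 (adjusted p = 0.0138). In the mean of both effects 16 were higher and 6 lower, 37.3% of them, against 41.8% of all genes. Among them TOP3A, a topoisomerase that works with BLM, rose by 1.01 ± 0.20 (2.02-fold, adjusted p = 0.00197). The DMSO replicates of TOP3A at 48 h were far apart, with a standard deviation of 0.77 on the log2 scale. WDR48, a cofactor of the enzyme that removes ubiquitin from the ID complex, rose by 0.49 ± 0.11 (adjusted p = 0.004).

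Cell-cycle genes were set beside the repair genes, since many repair genes are read mainly in S and G2 phase. Of 28 tested G2 and M phase genes 15 were lower and none higher at 24 h, with a median log2 change of -0.449. That is 53.6% called, against 24.3% of all genes. CENPA, the centromeric histone, fell by 0.96 ± 0.13 (adjusted p = 0.000714), and AURKB by 0.94 ± 0.13 (adjusted p = 0.000954), TPX2 by 0.90 ± 0.13 (adjusted p = 0.00118), NUF2 by 0.90 ± 0.13 (adjusted p = 0.00125) and CCNB2 by 0.68 ± 0.12 (adjusted p = 0.00356), all of which act in mitosis. At 48 h 6 were lower and 2 higher, 28.6% called against 25.8% of all genes, with a median of -0.116. CENPA fell by 0.55 ± 0.13 (adjusted p = 0.00968), KIF20A by 0.58 ± 0.15 (adjusted p = 0.0155) and TPX2 by 0.42 ± 0.13 (adjusted p = 0.0384), while CENPF rose by 0.83 ± 0.14 (adjusted p = 0.00164) and CDC20 by 0.43 ± 0.14 (adjusted p = 0.0398).

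Of 31 tested S phase genes 1 was higher and 3 were lower at 24 h, with a median of 0.112, and 3 were higher and 2 lower at 48 h, with a median of 0.05. That is 12.9% called at 24 h and 16.1% at 48 h, against 24.3% and 25.8% of all genes. LIG1, the ligase of replication, fell by 0.98 ± 0.17 at 24 h (adjusted p = 0.00315) and by 0.83 ± 0.17 at 48 h (adjusted p = 0.00611). TYMS, which makes thymidylate, fell by 0.66 ± 0.12 (adjusted p = 0.00356) and by 0.45 ± 0.12 (adjusted p = 0.019), and GINS2, a part of the replicative helicase, fell by 0.49 ± 0.12 at 24 h (adjusted p = 0.015). CDT1, a licensing factor, rose by 0.64 ± 0.17 at 24 h (adjusted p = 0.0184) and by 0.84 ± 0.17 at 48 h (adjusted p = 0.0044), and GINS4 by 0.89 ± 0.24 (adjusted p = 0.0213) and PCNA by 0.33 ± 0.11 (adjusted p = 0.0447) at 48 h. The DMSO replicates of GINS4 at 48 h were far apart, with a standard deviation of 0.70 on the log2 scale. The part of a change in cell-cycle phase in the repair gene values was not tested.

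**Figure D5:**
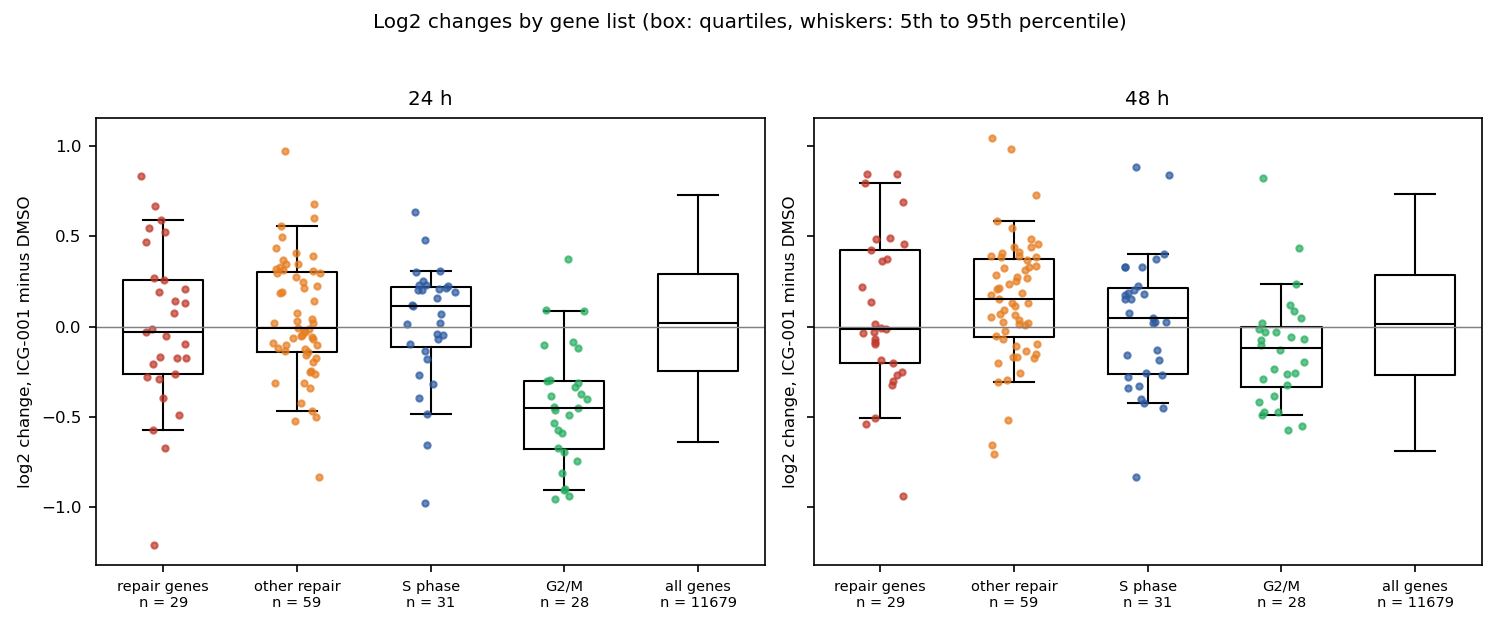
Log2 changes (ICG-001 minus DMSO) at 24 h and 48 h of the 29 repair genes, 59 other repair genes, 31 S phase genes and 28 G2 and M phase genes (points: genes; boxes: median and quartiles; whiskers: 5th and 95th percentile), beside all 11679 genes as a box alone. The repair genes centre near 0 at both times, while the median of the G2 and M phase genes is -0.449 at 24 h and -0.116 at 48 h.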

How the data were processed

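Gene expression was measured on 14 Illumina bead arrays. Per the file headers, the deposited non-normalized table gives an intensity per probe and the p-value of its detection against negative controls. The authors' second deposited table holds log2-like values of 22579 probes. Per the submitters' processing notes lumi was used, in a version and with settings not stated there.

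Here neqc (limma 3.58.1, R 4.3.3) subtracted background estimated from the detection p-values, added 16, and applied quantile normalization and log2. Probes with a detection p below 0.05 on at least 3 arrays were kept. Probe symbols came from the array annotation (16545 probes with 1 symbol) and were updated by gene identifier through a RefSeq table (GRCh38.p14). The probe with the highest mean stood for a gene. Background correction and quantile scaling act most on dim probes, so a fold change of a dim gene depends on the offset.

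Arrays whose titles share a number were averaged, which left 10 replicates. That such arrays repeat 1 sample is an assumption, since the labels do not say so, and it sets n and every p. With lmFit and eBayes, 1 mean per group was fitted jointly for the 4 groups (6 residual and 5.16 prior degrees of freedom). ICG-001 was set against DMSO at 24 h and at 48 h, both effects were averaged and subtracted, and the later DMSO cells were set against the earlier ones. Every adjusted p is limma's, two-sided and Benjamini-Hochberg corrected over 11679 genes, or over 22158 probes where a second probe is given. The fit was tested on simulated data. Replicates without an averaged partner are called by their array's number within the group.

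Every repair gene is accounted for: those past 0.05 in any comparison are given with values and the others by counts and ranges. Of the other repair list, up to 5 called genes with the smallest p at 24 h, at 48 h and in the mean effect are named. For the S phase and the G2 and M phase lists this holds at 24 h and 48 h, and their mean effects are not given. The members and all lists were chosen with earlier results of these data known. The 24 alternatives tried covered background correction, scaling, the authors' table, averaging of arrays, the filter, array weights, the samples fitted, the probes and each replicate in turn. Single genes of the other lists were not followed through these alternatives.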

Additional observations from a re-analysis of the deposited data

Results flagged for a closer look

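In the 2 ICG-001 groups of 4 arrays, 86 tests asked whether 1 array lay apart from the other 3 for a probe of these repair genes, and 7 did so by Dixon's ratio, where chance gives about 1 in 20. At 24 h, RAD51D was lowest on array 4 (5.69, the others 6.23 to 6.32), XRCC2 was highest on array 2 (8.86, the others 8.22 to 8.33) and RAD54L was highest on array 1 (7.94, the others 7.48 to 7.52). At 48 h, NBN was highest on array 2 (9.49, the others 9.21 to 9.24), PALB2 was lowest on array 3 (7.10, the others 7.46 to 7.52), XRCC2 was highest on array 4 (8.83, the others 8.55 to 8.59) and MSH6 was lowest on array 4 (10.98, the others 11.05 to 11.07). The titles of the 2 arrays that were high for XRCC2, and of the one low for MSH6, end in b.

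By their brightest probes, ATM and RAD51D stood on opposite sides of DMSO at the 2 times in all replicates. The share of all genes with such a crossing was not counted. With so few replicates, 51% of all genes did not overlap at 24 h and 54.4% at 48 h. The other ATM probe overlapped DMSO at 24 h (change 0.14), and the other RAD51D probe changed by 0.09 and 0.10. The log2 change at 48 h minus that at 24 h was -0.56 for ATM (unadjusted p = 0.0129, adjusted p = 0.874 in limma) and 0.85 for RAD51D (unadjusted p = 0.0122, adjusted p = 0.874). Neither difference passed the correction over all genes.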

How the results depend on the processing

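Across the alternatives run, no repair gene called in a comparison changed direction. The 6 genes called higher at 24 h ranged from 1 to 6 when 1 replicate was left out, the 6 higher at 48 h from 3 to 6, and the 2 lower at 48 h from 1 to 3. With every array as its own replicate 4 were lower at 48 h. Centring on S phase genes, chosen after seeing the data, gave 3 higher and 5 lower at 48 h, and 5 higher and 8 lower in the mean effect, against 8 and 4. The other counts stayed within 1.5 times. No paired analysis was possible because the titles give no 2 groups a common number. Within arrays of 1 title number limma estimated a correlation of 0.175, or 0.542 with the ending b as a term. All genes called numbered 2833 at 24 h (1514 to 3940 over the alternatives), 3010 at 48 h (1398 to 3805) and 4878 in the mean effect (3855 to 5536). The calls of H2AX and FANCI at both times, and of UBE2T at 24 h, held under each alternative, as did the mean effects of PALB2, RAD51C, FANCC, FANCG, CHEK2 and MSH6. Each of these rests on the brightest probe, and for RAD51C another probe's mean effect was 0.37 (adjusted p = 0.0331 over all probes). FANCL, not called, was called under the title number as a random block. With 2 DMSO replicates at each time, leaving one out assumes that the lone sample varies like the other groups. Signals near background, as for BRIP1, FANCC and the dim probes of MRE11 and EXO1, limit their folds.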
